A study of Mus musculus with 6 samples.

Results

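Interferon-stimulated genes, which cells switch on when they sense interferon or viral nucleic acid, were taken as a set of 41 symbols. Of these, 40 had a mean of at least 10 normalised counts (reads divided by a size factor per library) over the 6 libraries, and they are described here among the 13490 genes that reached this mean, out of 24404 listed. The remaining gene, Oas2, an oligoadenylate synthetase, had 0, 0 and 5 reads in Klf5 LKO libraries 1 to 3, against 35, 0 and 11 reads in control libraries 1 to 3, and was not tested. The RNA was taken from the duct-lining epithelium of intrahepatic bile ducts (biliary epithelial cells) of adult C57BL/6 mice after 1 week of injury with DDC, a porphyrinogenic compound that damages the ducts. The 3 Klf5 LKO libraries carried the genotype Alfp-CreTg/+;Klf5flox/flox and the 3 control libraries Alfp-Cre+/+;Klf5flox/flox, so all 6 shared the floxed Klf5 gene and the injury. The Alfp promoter drives Cre in the liver epithelial lineage, hepatocytes as well as duct cells, and Cre itself and the loss of Klf5 cannot be told apart. Separate mice per library are not stated in the labels, so p-values reflect only the spread among these libraries, and some of it may be technical.

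Type I interferons (alpha, beta and their relatives) and type III interferons (lambda, which act mainly on epithelia) bind surface receptors and activate the kinases Jak1 and Tyk2. These lead to the assembly of ISGF3, a transcription factor complex that includes Stat2 and Irf9 and binds the interferon-stimulated response element in the promoters of its target genes. Some targets, such as Ifit2, Rsad2 and Isg15, can also be switched on without interferon, by Irf3 once a nucleic acid sensor has been triggered.

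The libraries held between 11726934 and 24784167 reads assigned to genes, fewest in control 2. Klf5 had 977, 1192 and 1183 normalised counts in Klf5 LKO, against 2056, 2018 and 2316 in control (log2 fold change -0.93, SE 0.14, adjusted p = 0.0103, limma). The call ended without control 1, 2 or 3 (adjusted p = 0.0625, 0.0681 and 0.0540). The counts are per gene, so reads from any part that was not deleted would be included. Nor do the counts show in what share of the cells the gene was deleted. All 6 biliary markers were high in every library, but 5 of the 6 had a negative log2 fold change, and the duct keratins Krt19 (-0.74, SE 0.18) and Krt7 (-0.63, SE 0.14) were lower in every Klf5 LKO library than in every control library. Krt19 lay between 6139 and 10188 in Klf5 LKO and between 11691 and 14735 in control, and Krt7 between 5437 and 7619 in Klf5 LKO and between 9295 and 10101 in control. These 2 did not pass with limma (adjusted p = 0.0988 and 0.0720) and were called lower by DESeq2 (adjusted p = 0.00192 and 0.000905). The part of this difference in the results on the interferon-stimulated genes was not tested. The surface protein Epcam lay between 23402 and 26173 in Klf5 LKO and between 25301 and 28906 in control. Leukocytes express many interferon-stimulated genes, and the summed normalised count of 9 leukocyte markers, all 9 with reads in each library, was 2215, 563 and 454 in Klf5 LKO, against 4142, 1759 and 674 in control. Lcp1 alone held 934, 411 and 199 of these sums in Klf5 LKO, against 1171, 550 and 460 in control. Of 8 markers of macrophages and Kupffer cells, 3 to 6 had no read in each Klf5 LKO library and 3 to 5 in each control library, Clec4f and Vsig4 in all 6, and the summed level (1103 to 1577 in Klf5 LKO, against 1470.2 to 1648 in control) was carried by Csf1r and Cd68. Siglech, a receptor of plasmacytoid dendritic cells, had 2 to 5 reads per Klf5 LKO library and 1 to 3 per control library. Of the other markers listed for these cells, Ccr9 had 1 to 6 reads per Klf5 LKO library and 1 to 11 per control library. Klk1 and Cox6a2 had 0 reads in Klf5 LKO and at most 2 in any control library. Tcf4 averaged 700 ± 192 in Klf5 LKO, against 693 ± 57.5 in control (SD, n = 3 each), and Bst2 is a member described below. In RNA of whole samples, fewer cells of a type and less RNA per cell cannot be told apart.

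Rsad2 and Ifit1 rose in Klf5 LKO and none of the 40 genes fell (limma, Benjamini-Hochberg adjusted p under 0.05 over all 13490 genes). These are 2 of 40, where over all genes 0.163% were called higher, 0.489% lower and 0.652% in either direction. Ifit2 was called higher by DESeq2 and not by limma, and the other 37 genes passed neither test. In 10 of the 40 the log2 fold change was smaller than 0.1 in size. In 9 of the 40 (22.5%) every Klf5 LKO library was above every control library, while over all genes tested this held for 7.72%. In 0 of the 40 was every Klf5 LKO library below every control library, which held for 7.88% of all genes. The median log2 fold change of the 40 was 0.12, beside -0.01 over all genes tested, and 25 of the 40 (62.5%) had a positive value and 15 a negative one, beside 49.2% and 50.8% of all genes.

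**Figure D1:**
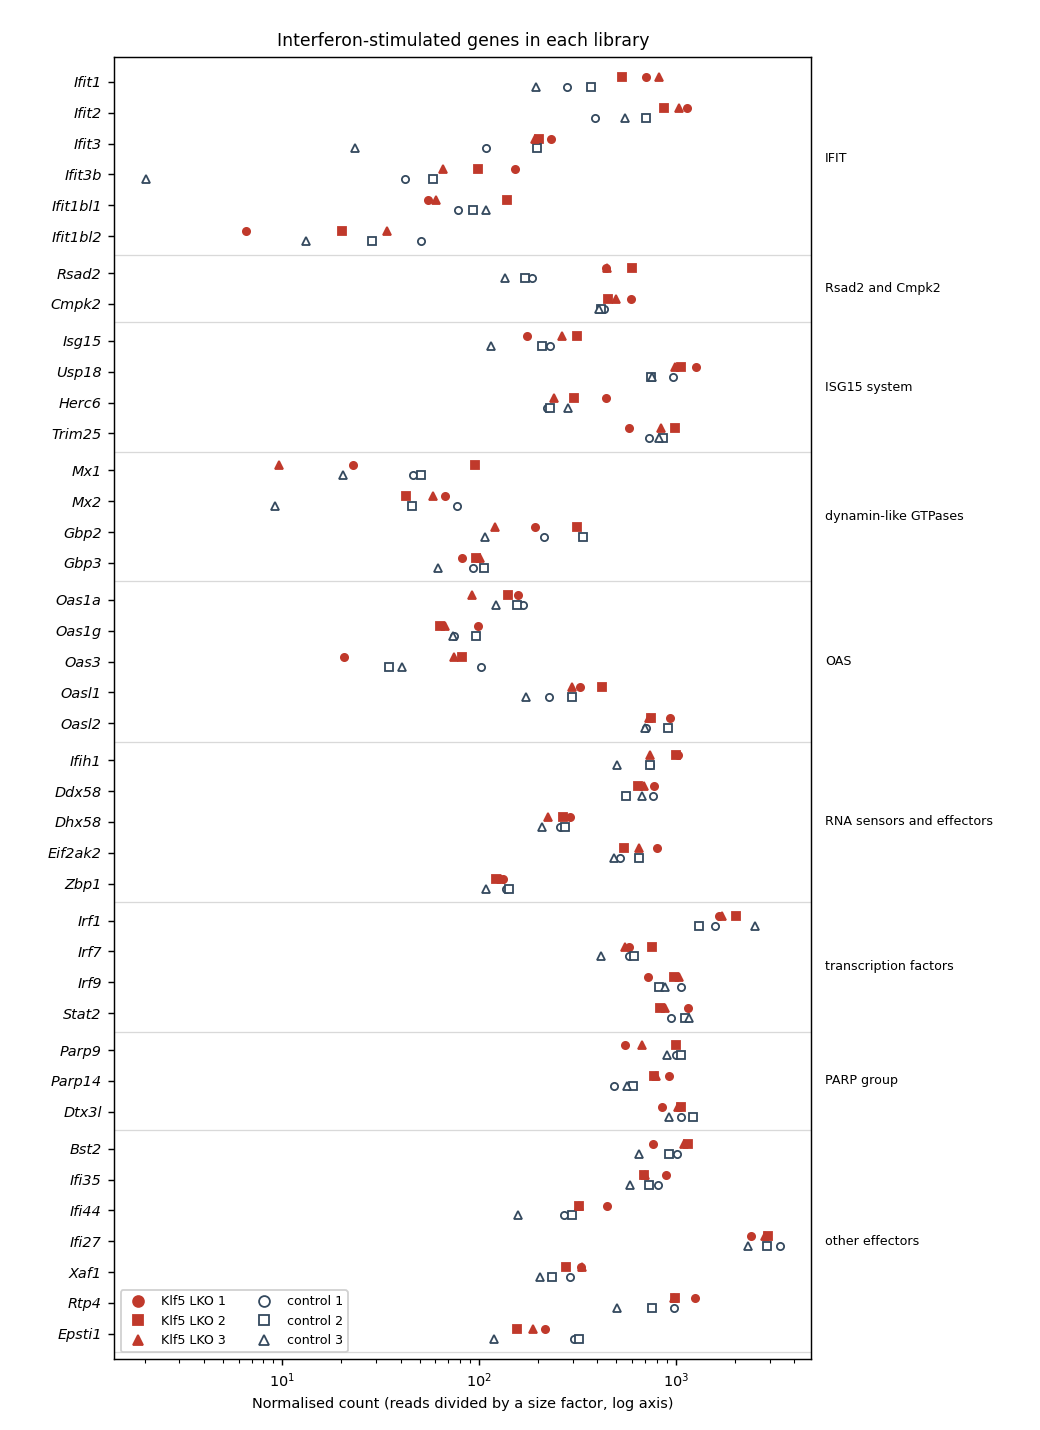
Normalised count (log axis) of each of the 40 genes in each library, grouped by role, with Klf5 LKO libraries as filled red symbols above control libraries as open blue symbols. The red symbols lie to the right of all blue ones in 9 genes, among them Ifit1, Ifit2 and Rsad2, and control 3 (open triangle) is the leftmost symbol in 23.

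Rsad2 and Cmpk2 are neighbours on opposite strands, with starts 12752 bases apart in the GENCODE M21 annotation of GRCm38 (the assembly of mm10). Rsad2 (chromosome 12, 26442746 to 26456452, minus strand) codes for viperin, a radical S-adenosylmethionine enzyme that makes a chain-terminating nucleotide against viral polymerases, and Cmpk2 (chromosome 12, 26469204 to 26479837, plus strand) for a mitochondrial nucleotide kinase. The promoter windows of both, from 250 bases before to 50 bases after the RefSeq start in GRCm38.p6, are shown because they differ in the core of the response element (GAAA, any 2 bases, then GAAA, on either strand), given in capitals. The Rsad2 window holds 1 match, 120 bases before the start, and the Cmpk2 window holds none.
Rsad2, chr12:26456403-26456702, minus strand: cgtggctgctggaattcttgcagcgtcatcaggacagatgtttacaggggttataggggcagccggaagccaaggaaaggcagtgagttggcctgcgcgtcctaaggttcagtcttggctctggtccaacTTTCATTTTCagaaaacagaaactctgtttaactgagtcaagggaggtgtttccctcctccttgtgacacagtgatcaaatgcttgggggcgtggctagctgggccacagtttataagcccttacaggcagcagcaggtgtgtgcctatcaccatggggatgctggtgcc
Cmpk2, chr12:26468965-26469264, plus strand: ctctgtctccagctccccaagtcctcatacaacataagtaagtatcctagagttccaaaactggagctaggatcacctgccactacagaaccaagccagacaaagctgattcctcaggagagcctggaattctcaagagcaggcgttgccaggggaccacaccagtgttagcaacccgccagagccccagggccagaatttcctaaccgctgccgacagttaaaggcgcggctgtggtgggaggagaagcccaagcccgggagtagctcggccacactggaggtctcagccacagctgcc

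Rsad2 had 445, 599 and 449 normalised counts in Klf5 LKO, against 186, 171 and 135 in control. The lowest Klf5 LKO library was more than 2-fold above the highest control library. Rsad2 averaged 498 ± 88.0 in Klf5 LKO, against 164 ± 26.0 in control (SD, n = 3 each) and rose by 1.60 on the log2 scale (SE 0.24, 95% confidence interval 1.08 to 2.11, limma adjusted p = 0.0103). Without control 2 its log2 fold change was 1.63 and the call ended (adjusted p = 0.0588), while it stood without any other single library. Cmpk2 had 592, 452 and 497 normalised counts in Klf5 LKO, against 434, 416 and 409 in control. Its groups stood apart by a narrow margin, and its log2 fold change of 0.28 (SE 0.19) did not pass (adjusted p = 0.633).

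The IFIT genes code for proteins with tetratricopeptide repeats, several of which bind foreign RNA and restrain its translation, and the 6 members lie in a cluster on chromosome 19. Ifit1 (chromosome 19, 34640871 to 34650009, plus strand) had 707, 533 and 822 normalised counts in Klf5 LKO, against 281, 373 and 194 in control. Ifit2 (chromosome 19, 34550694 to 34576419, plus strand) had 1147, 874 and 1035 normalised counts in Klf5 LKO, against 389, 708 and 555 in control. In both genes the groups stood apart, with control 2 nearest to the Klf5 LKO libraries. Ifit1 averaged 687 ± 146 in Klf5 LKO, against 283 ± 89.5 in control (SD, n = 3 each) and rose by 1.31 on the log2 scale (SE 0.26, 95% confidence interval 0.74 to 1.87, limma adjusted p = 0.0485). This call lay close to the threshold and ended when any 1 library was left out, with adjusted p = 0.0841, 0.0502 and 0.167 without Klf5 LKO 1, 2 and 3, and 0.156, 0.0681 and 0.134 without control 1, 2 and 3. Its log2 fold change stayed between 1.06 and 1.53 in these fits. Ifit2 averaged 1019 ± 137 in Klf5 LKO, against 551 ± 159.6 in control (SD, n = 3 each), with a log2 fold change of 0.92 (SE 0.22, limma adjusted p = 0.0961). DESeq2 called it (adjusted p = 0.00773), and over the alternatives tried its adjusted p reached 0.306, without control 1.

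Ifit3 and Ifit3b are close copies. Of the distinct stretches of 50 bases in Ifit3 transcripts, 51.2% occur in another gene's transcripts, chiefly Ifit3b, and 45.0% of those of Ifit3b, chiefly in Ifit3, so how reads were divided between them is uncertain. Ifit3 had 233, 203 and 193 normalised counts in Klf5 LKO, against 109, 198 and 23.4 in control. Ifit3b had 152, 99.1 and 66.0 normalised counts in Klf5 LKO, against 42.3, 58.5 and 2.03 in control, where control 3 held 2 reads. Control 3 was far below control 1 and control 2 in both copies, a range within the control group of 8.45-fold for Ifit3 and 28.8-fold for Ifit3b. The log2 fold change of 1.38 for Ifit3 (SE 0.60) did not pass (adjusted p = 0.432), nor did that of 2.35 for Ifit3b (SE 0.93, adjusted p = 0.377). With DESeq2 the log2 fold changes were smaller, 0.94 for Ifit3 and 1.64 for Ifit3b, and neither passed (DESeq2 adjusted p = 0.550 and 0.362). Without control 3 the log2 fold changes were 0.51 for Ifit3 and 0.99 for Ifit3b. Summed, the copies had 385, 302 and 259 in Klf5 LKO, against 151, 256 and 25.4 in control. The promoter windows of both copies hold 2 matches to the response element core, and the 2 windows of Ifit2 hold none.

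Ifit1bl1 and Ifit1bl2, Ifit1-like genes on the opposite strand of the cluster, overlapped between groups. Ifit1bl1 had 55.0, 139 and 60.7 normalised counts in Klf5 LKO, against 78.2, 93.2 and 109 in control (adjusted p = 0.882). Ifit1bl2 had 6.57, 20.1 and 34.1 normalised counts in Klf5 LKO, against 50.6, 28.4 and 13.2 in control (adjusted p = 0.828). Klf5 LKO 1 was the lowest library for both. A RefSeq start of Ifit1bl2 faces that of Ifit1, and the same 2 matches to the response element core lie in the windows of both, 104 and 85 bases before the Ifit1 start. They are shown because they are shared by a gene that rose and a gene that did not pass, in capitals on the Ifit1 strand.
Ifit1, chr19:34640639-34640938, plus strand: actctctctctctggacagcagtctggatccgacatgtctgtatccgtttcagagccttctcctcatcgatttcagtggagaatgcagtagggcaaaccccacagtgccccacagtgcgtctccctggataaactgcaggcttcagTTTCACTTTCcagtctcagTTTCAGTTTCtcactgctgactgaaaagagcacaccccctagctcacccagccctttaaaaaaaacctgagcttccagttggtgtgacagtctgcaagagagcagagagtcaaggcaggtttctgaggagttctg

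Isg15 codes for a ubiquitin-like protein that is attached to other proteins, Herc6 for the ligase that attaches it in mice, Usp18 for the protease that removes it and damps the type I receptor, and Trim25 for a ubiquitin ligase that acts on the RNA sensor RIG-I. The Isg15 window is shown because it holds the most matches among the 31 members in the promoter table, 3 that overlap, in capitals, from 78 bases before the start.
Isg15, chr4:156200769-156201068, minus strand: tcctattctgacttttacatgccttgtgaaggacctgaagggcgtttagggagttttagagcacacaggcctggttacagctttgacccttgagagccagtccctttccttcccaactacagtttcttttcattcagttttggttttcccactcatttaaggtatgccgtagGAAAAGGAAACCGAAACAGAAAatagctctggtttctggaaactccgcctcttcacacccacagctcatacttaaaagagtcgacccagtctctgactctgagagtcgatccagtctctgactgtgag

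Isg15 had 176, 314 and 265 normalised counts in Klf5 LKO, against 231, 209 and 116 in control. Control 1 and control 2 lay above Klf5 LKO 1, so the groups overlapped (log2 fold change 0.46, SE 0.33, adjusted p = 0.663). Usp18 had 1271, 1070.2 and 997 normalised counts in Klf5 LKO, against 965, 752 and 759 in control. Its groups stood apart by a narrow margin (log2 fold change 0.43, SE 0.16, adjusted p = 0.349). Trim25 had 580.1, 994 and 843 normalised counts in Klf5 LKO, against 733, 859.8 and 819 in control, and Herc6 averaged 329.5 ± 102 in Klf5 LKO, against 245 ± 32.5 in control (SD, n = 3 each). In both the groups overlapped.

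The oligoadenylate synthetases make a messenger that activates an RNA-cutting enzyme, and 0 of the 5 members tested passed in either direction (1 had an unadjusted limma p under 0.05, Oasl1). Oasl1, a synthetase-like protein known in mice to restrain translation of Irf7, had 325, 422 and 296 normalised counts in Klf5 LKO, against 228, 297 and 174 in control. Control 2 lay just above Klf5 LKO 3 (log2 fold change 0.59, SE 0.26, adjusted p = 0.437). Oasl2, its neighbour, had 939.9, 747 and 729 normalised counts in Klf5 LKO, against 709, 915 and 701 in control, with a log2 fold change of 0.06. Oas1a and Oas1g share much of their sequence (57.6% of the 50-base stretches of Oas1a occur in another gene, chiefly Oas1g), and summed they had 256, 203 and 159.7 in Klf5 LKO, against 243, 253 and 196 in control. Oas3 lay between 20.5 and 82.0 in Klf5 LKO and between 34.8 and 103 in control.

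Of the 4 large GTPases, which assemble on viral components or on membranes that enclose pathogens, 0 passed in either direction, nor had any an unadjusted limma p under 0.05. Gbp2, a guanylate-binding protein induced mainly by interferon gamma, had 193, 314 and 121 normalised counts in Klf5 LKO, against 214, 337 and 108 in control. Its libraries spread over nearly the same range in both groups. Gbp3 had 82.2, 96.9 and 101 normalised counts in Klf5 LKO, against 92.9, 106 and 62.0 in control. Mx1 lay between 9.58 and 95.4 in Klf5 LKO and between 20.3 and 50.6 in control, and Mx2 between 42.5 and 67.4 in Klf5 LKO and between 9.14 and 77.2 in control. The highest Mx1 library was Klf5 LKO 2 and the lowest Mx2 library was control 3.

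Of the 5 sensors and effectors that recognise foreign RNA or DNA, 0 passed (1 had an unadjusted limma p under 0.05, Ifih1). Ifih1, which codes for MDA5, a sensor of long RNA duplexes, had 1022, 1007 and 743 normalised counts in Klf5 LKO, against 738, 741 and 501 in control. Klf5 LKO 3 lay only just above control 1 and control 2 (log2 fold change 0.49, SE 0.20, adjusted p = 0.396). Ddx58, which codes for RIG-I, had 781, 646 and 687 normalised counts in Klf5 LKO, against 769.7, 558 and 676 in control. Dhx58, a relative that tunes both sensors, averaged 261 ± 34.2 in Klf5 LKO, against 248 ± 33.5 in control, and Eif2ak2, the kinase PKR that halts translation, 668 ± 129.6 in Klf5 LKO, against 553 ± 84.4 in control (SD, n = 3 each). Zbp1, a sensor of Z-form nucleic acid that can start cell death, lay between 122 and 133 in Klf5 LKO and between 109 and 142 in control. In these 4 the groups overlapped.

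The 4 transcription factors of the set overlapped between groups, with log2 fold changes between -0.18 and 0.24. Irf1, which interferon gamma induces, had 1668, 2033 and 1723 normalised counts in Klf5 LKO, against 1587, 1313 and 2524 in control. It was 1 of 2 members with their highest value in control 3. The ISGF3 subunit Stat2 had 1160.1, 829 and 886 normalised counts in Klf5 LKO, against 944, 1113 and 1169 in control (adjusted p = 0.770). Irf9, the DNA-binding subunit of ISGF3, averaged 914 ± 171 in Klf5 LKO, against 924 ± 127 in control and Irf7, which amplifies type I interferon production, 631 ± 109 in Klf5 LKO, against 536 ± 103 in control (SD, n = 3 each). The 95% confidence intervals of the log2 fold change were -0.54 to 0.19 for Stat2 and -0.42 to 0.37 for Irf9. Changes within these bounds remain compatible with the values, and the bounds are not a limit of detection.

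Parp9 and Dtx3l, which work together in ADP-ribosylation and ubiquitination, and Parp14, a mono-ADP-ribosyltransferase, lie near each other on chromosome 16. Parp14 (chromosome 16, 35832874 to 35871544, minus strand) had 921, 779.5 and 796 normalised counts in Klf5 LKO, against 485, 607 and 568 in control. Its groups stood apart, with a log2 fold change of 0.59 (SE 0.17) that did not pass with limma (adjusted p = 0.175) or DESeq2 (adjusted p = 0.0688). Parp9 had 555, 1003 and 671 normalised counts in Klf5 LKO, against 1005, 1068 and 907 in control. Klf5 LKO 1 and 3 lay below every control library and Klf5 LKO 2 did not (log2 fold change -0.46, SE 0.21, adjusted p = 0.449). Dtx3l had 857, 1070.2 and 1029 normalised counts in Klf5 LKO, against 1058, 1229.6 and 929 in control, with overlapping groups. Exons of Parp9 and Dtx3l overlap on opposite strands, and since the library kit does not mark strand, reads there cannot be told apart.

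Of the 7 remaining effectors, 0 passed (2 had an unadjusted limma p under 0.05, Rtp4 and Ifi44). Ifi27, a small hydrophobic protein, had 2426, 2955 and 2859.9 normalised counts in Klf5 LKO, against 3373, 2924 and 2338 in control (adjusted p = 0.930). Bst2, tetherin, which holds budding virions at the cell surface, had 772, 1159.6 and 1098 normalised counts in Klf5 LKO, against 1021, 919.8 and 652 in control (adjusted p = 0.754). Both overlapped between groups. Ifi44 had 448, 322 and 324 normalised counts in Klf5 LKO, against 271, 297 and 157 in control, with groups just apart (log2 fold change 0.62, SE 0.28, adjusted p = 0.443). Rtp4, a transporter protein that restrains viral replication, had 1259, 997 and 981 normalised counts in Klf5 LKO, against 984, 755 and 506 in control, where control 1 lay above Klf5 LKO 3 by a narrow margin (log2 fold change 0.57, SE 0.22, adjusted p = 0.370). Epsti1 lay between 156 and 216 in Klf5 LKO and between 119.9 and 321 in control, so control libraries fell on both sides of the Klf5 LKO range. Xaf1, which favours cell death, averaged 314 ± 31.3 in Klf5 LKO, against 242 ± 43.2 in control, and Ifi35 762 ± 118 in Klf5 LKO, against 709 ± 112 in control (SD, n = 3 each). As levels per kilobase of exon, the highest members were Ifi27, with 1873 in Klf5 LKO, against 1962 in control, and Bst2, with 1118 in Klf5 LKO, against 957 in control. On this scale Rsad2 had a level of 115 in Klf5 LKO, against 37.8 in control, and Ifit1 of 259 in Klf5 LKO, against 106 in control, so both called genes were below Ifi27 and Bst2 in both groups.

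**Figure D2:**
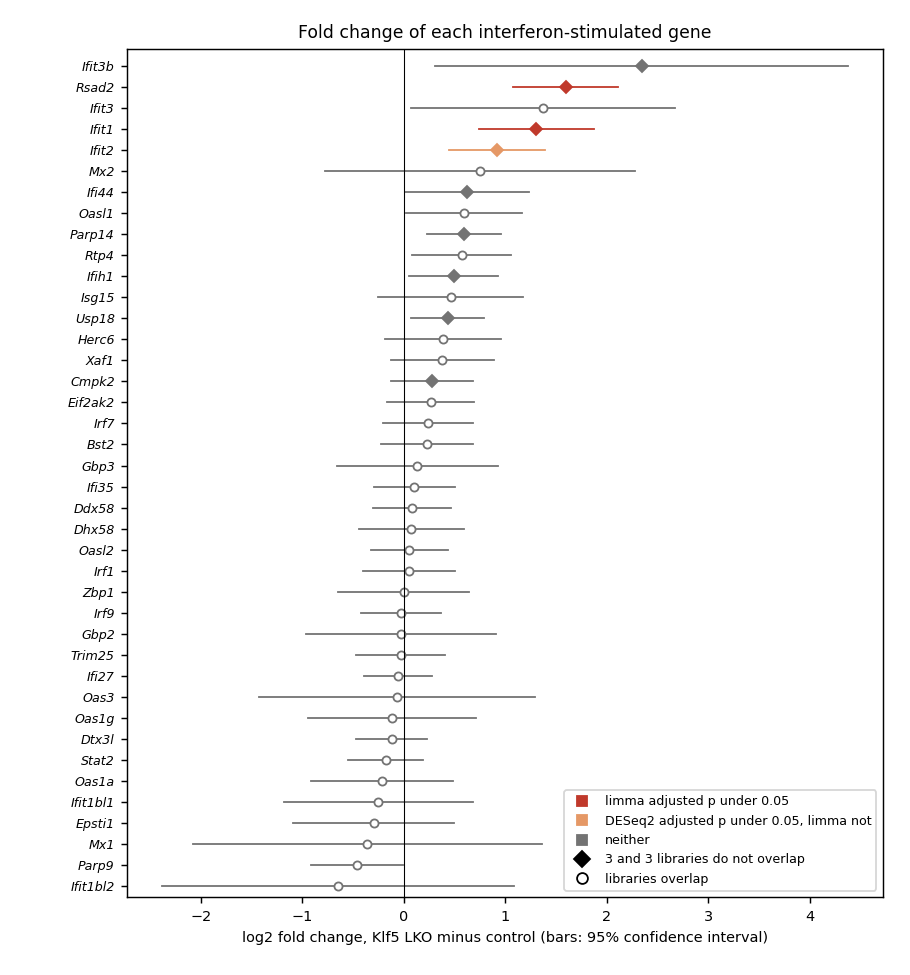
Log2 fold change (Klf5 LKO minus control) of each of the 40 genes with its 95% confidence interval, in descending order. Rsad2 and Ifit1 are the 2 genes called by limma (red), Ifit2 is called by DESeq2 alone (orange), and filled diamonds mark the 9 genes whose groups do not overlap.

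Of the 40 genes, 11 had an unadjusted limma p under 0.05 in the higher direction and 1 in the lower, where all genes tested gave 4.95% and 5.92%. DESeq2 on recovered reads called 3 members higher (Rsad2, Ifit1 and Ifit2) and 0 lower, with 0.882% of all genes called higher and 1.6% lower. The edgeR test called 1 member higher, Rsad2, and 0 lower, with 0.133% of all genes called higher. In the authors' deposited table, 3 of the members had an adjusted p under 0.05, again Rsad2, Ifit1 and Ifit2, each higher. Of the 13184 genes with an adjusted p in the authors' deposited table, 318 (2.41%) were under 0.05, 119 of them (0.903%) higher.

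The libraries differed across the set, control 3 most. Control 3 was the lowest of the 6 libraries in 23 of the 40 genes (57.5%), whereas over all genes tested it was the lowest in 15.6%. The median of log2(value + 1) minus each gene's mean over the 6 libraries was 0.20, 0.16 and 0.07 in Klf5 LKO 1 to 3, against 0.02, 0.09 and -0.33 in control 1 to 3. Over all genes tested this median lay between 0.00715 and 0.0118 in every library. Klf5 LKO 1 was the highest library in 16 of the 40 genes (40%), beside 23.6% of all genes. The SD of log2 values was larger in control in 26 of the 40 genes, or 65.0%, while this held for 39.96% of all genes. Its median over the 40 genes was nearly equal, 0.258 in Klf5 LKO and 0.260 in control, beside 0.261 and 0.213 over all genes tested. Within Klf5 LKO 6 members spanned more than 2-fold, and within control 8 did. Without control 3 the median log2 fold change of the 40 genes was 0.01 in place of 0.12, and without control 1, control 2 or Klf5 LKO 3 it was 0.22, 0.28 or 0.23. The log2 fold changes of Rsad2, Ifit1 and Ifit2 without control 3 were 1.46, 1.06 and 0.95.

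**Figure D3:**
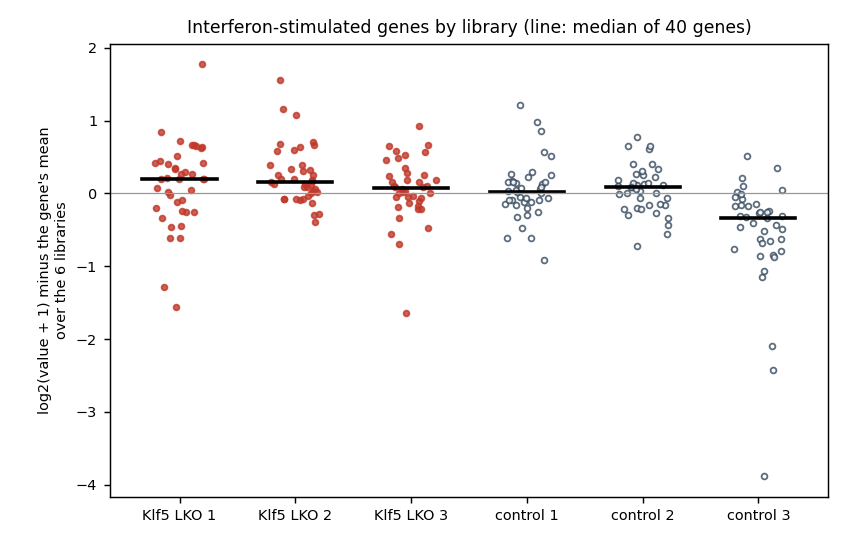
Each point is 1 of the 40 genes in 1 library, given as log2(value + 1) minus the gene's mean over the 6 libraries, with Klf5 LKO libraries in filled red, control libraries in open blue and the median as a black line. The medians of the 3 Klf5 LKO libraries, control 1 and control 2 lie between 0.02 and 0.20, and that of control 3 at -0.33.

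Klf5 LKO 2, Klf5 LKO 3 and control 3 were the libraries with the lowest leukocyte sums. With the mean log2 level of the 9 leukocyte markers as a term in the fit, Rsad2 rose by 1.64 on the log2 scale (adjusted p = 0.0270) and Ifit1 by 1.501 (adjusted p = 0.0393), and the median log2 fold change of the 40 genes was 0.24. Within Klf5 LKO, Rsad2 was highest in library 2 and the leukocyte sum in library 1, and within control both were highest in control 1 and lowest in control 3. All 9 markers had a negative log2 fold change, so the leukocyte term partly overlaps with the group. The fit with this term therefore cannot separate leukocyte RNA from the group, and the part of leukocyte RNA in the values was not tested.

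The response element core, GAAA, any 2 bases and GAAA, searched on both strands, was present in the promoter window of 17 of the 31 tested members in the RefSeq table (54.8%), beside 3.99% of all 27025 genes in it. Matches can overlap each other, and a match describes letters and not a bound site. Among members whose groups did not overlap, 4 of the 7 in the table held the response element core, and among those whose groups overlapped 13 of 24 did. Rsad2, with 1 match, and Ifit1, with 2, were the genes called by limma. Other members with 2 or 3 matches, such as Isg15, Oas1a, Oas1g, Gbp3 and Bst2, were among those that did not pass. Ifit3b, with 2 matches, Ifih1, with 1, and Ifit2, Cmpk2 and Ifi44, with none, were also above control in every Klf5 LKO library.

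**Figure D4:**
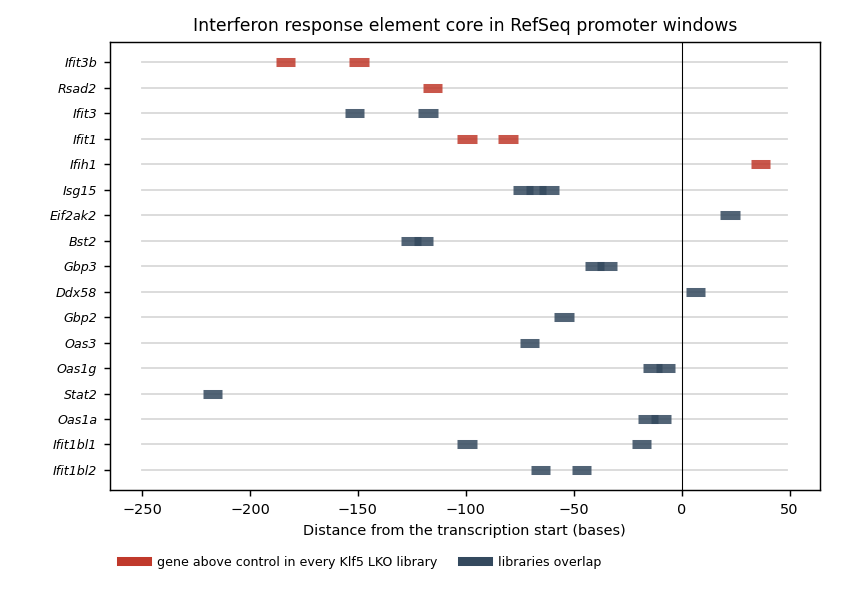
Position of each match to the response element core relative to the RefSeq transcription start in the 17 members that hold one, in descending order of log2 fold change (grey line: the window searched). Matches of genes above control in every Klf5 LKO library are red and those of the others blue, and matches of both kinds lie on either side of the start, most of them before it.

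The genes upstream of the set were taken from lists of interferon pathway genes. Of 11 type I and III interferon genes, 9 had no read in any library, Ifnb1, Ifnl2 and Ifnl3 among them, and Ifng had none either. At most 9 reads were assigned to Ifnk and 4 to Ifnz in any library. A count of 0 allows up to 3 reads, or 2.24 to 3.19 normalised counts in the Klf5 LKO libraries and 2.76 to 4.74 in control, for counting error only. All 6 receptor chains were measured and 0 passed. Ifngr1, the receptor chain of interferon gamma, averaged 5487 ± 468 in Klf5 LKO, against 6185 ± 502 in control (SD, n = 3 each). Ifnar1, a chain of the type I receptor, had 3055, 2614 and 2875 in Klf5 LKO, against 2126, 2537 and 2535 in control. Its partner Ifnar2 had 599, 942 and 953 in Klf5 LKO, against 1035, 1229.6 and 1081 in control. The groups of these partner chains stood apart in opposite directions, with a log2 fold change of 0.25 for Ifnar1 (SE 0.13, adjusted p = 0.530) and -0.45 for Ifnar2 (SE 0.19, adjusted p = 0.424). The kinase Jak1 averaged 5836 ± 607 in Klf5 LKO, against 6353 ± 468 in control, and Stat3, which acts downstream of several cytokine receptors, 4965 ± 609.7 in Klf5 LKO, against 4765 ± 583 in control (SD, n = 3 each).

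Downstream, 0 of 37 further interferon-induced genes, 0 of 12 antigen presentation genes and chemokines, 0 of 9 nucleic acid sensing genes and 0 of 6 feedback genes passed in either direction with limma, DESeq2 or edgeR. Over these and the receptor and JAK-STAT lists, 75 genes in all, 9 had an unadjusted limma p under 0.05 in the higher direction and 3 in the lower, or 12% and 4%, beside 4.95% and 5.92% of all genes. In 10 of the 75 (13.3%) every Klf5 LKO library was above every control library and in 4 (5.33%) below, beside 7.72% and 7.88% of all genes, and the median log2 fold change was 0.04, beside -0.01. The chemokine Cxcl10, a known interferon target, had 197, 228 and 300.3 normalised counts in Klf5 LKO, against 115, 139 and 102 in control. Its groups did not overlap, and its log2 fold change of 1.01 (SE 0.29) did not pass with limma (adjusted p = 0.172) or DESeq2 (adjusted p = 0.0718). The guanylate-binding protein Gbp9 had 810.1, 606 and 634 normalised counts in Klf5 LKO, against 570.1, 315 and 402 in control (log2 fold change 0.70, SE 0.23, adjusted p = 0.266). Gbp9 was among 4 of the 37 further interferon-induced genes with every Klf5 LKO library above every control library, and 3 lay below in the same way. These 3 were Pml (log2 fold change -0.55, SE 0.18, limma adjusted p = 0.259), Ifi27l2a (-1.04, SE 0.33, adjusted p = 0.259) and Ifi203 (-1.92, SE 0.91, adjusted p = 0.476). Tmem173, the adaptor STING of DNA sensing, averaged 1850.4 ± 187 in Klf5 LKO, against 1458 ± 139.8 in control (SD, n = 3 each, limma adjusted p = 0.393), and the kinase Tbk1, which activates Irf3, 1387 ± 242 in Klf5 LKO, against 1130.2 ± 250.1 in control (limma adjusted p = 0.607). Of the feedback genes, Socs3, an inhibitor of JAK kinases, averaged 1916 ± 137 in Klf5 LKO, against 1792 ± 598 in control, and the phosphatase Ptpn6 449 ± 87.9 in Klf5 LKO, against 494 ± 134 in control (SD, n = 3 each). The surface protein Ly6e averaged 27309 ± 1549 in Klf5 LKO, against 28008 ± 1579 in control, and the secreted glycoprotein Lgals3bp 5358 ± 318 in Klf5 LKO, against 5584 ± 115 in control (SD, n = 3 each). Of the class I heavy chains, H2-K1 averaged 26694 ± 6439 in Klf5 LKO, against 26034 ± 941 in control, and H2-D1 25871 ± 929 in Klf5 LKO, against 21282 ± 2435 in control (SD, n = 3 each). None of these differed past the threshold.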

How the data were processed

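RNA-seq libraries of 3 Klf5 LKO and 3 control samples, made per the labels from 4 ng of RNA with 10 and 7 amplification cycles, were grouped by title. The submitters' processing notes name mm10, TopHat, Bowtie2 and DESeq2; the read counter is not given in the sources used here. The authors deposited a signal per gene and library, judged from the values a read count divided by a size factor, and whole reads were recovered from 100% of values (tolerance 0.001). A further table deposited by the authors gives, for Klf5 LKO against control, a mean signal, log2 fold changes, a Wald statistic (a score) and p-values, per the file headers.

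The deposited values being normalised rather than raw, limma 3.58.1 (R 4.3.3, lmFit and eBayes with trend) was fitted on log2(value + 1) for 13490 genes with a mean of at least 10, as a two-sided test. Genes were called at a Benjamini-Hochberg adjusted p under 0.05, and p-values come from limma where no tool is given. The pseudocount of 1 understates changes of low genes. The limma log2 fold changes of Ifit3, Ifit3b and Mx2 (1.38, 2.35 and 0.75) were nonetheless larger than those of DESeq2 (0.94, 1.64 and 0.35). DESeq2 1.42.0 (119 genes higher, 216 lower) and edgeR 4.0.16 quasi-likelihood (18 higher, 66 lower) on recovered reads were alternatives, with limma-voom, 2 scalings, 2 pseudocounts, 2 filters, a replicate term, a leukocyte term and each library left out. The fit was tested on simulated data.

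The members, gene lists and tests were chosen with earlier results of these data known. By rule, values in each library are given for called members and the 2 members of highest mean in each role. Values are also given, by rule, for called pathway genes and the 2 of highest mean in each list. Ifit3, Ifit3b, Ifit1bl1, Ifit1bl2, Isg15, Parp14, Ifi44, Rtp4, Ifnar2, Cxcl10, Gbp9, Pml, Ifi27l2a, Ifi203, Krt19 and Krt7 were chosen after their values were seen.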

Additional observations from a re-analysis of the deposited data

How the results depend on the processing

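The number of members called higher was 2, and it was 1 (Rsad2) with a pseudocount of 0.5, no filter beyond 1 read, upper quartile scaling, edgeR, limma-voom or the replicate block, where Ifit1 missed the threshold (adjusted p = 0.0509, 0.0727, 0.0511, 0.0618, 0.0593 and 0.0654). Leaving out 1 library at a time gave 0 to 1 members called higher. Over all genes, 22 were called higher, against 13 with no filter and 119 with DESeq2, and 66 lower, against 216 with DESeq2; leaving out a library gave 1 to 22 higher and 13 to 83 lower. The cause was not tested. With the replicate block, the genes called higher were 27 and lower 83. Same-numbered libraries correlated at 0.18, -0.01 and 0.11 in their deviations from the group means, and differently numbered ones between -0.20 and 0.14. These values do not settle whether the numbers pair the libraries, and the main fit did not pair them.

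Of the 40 members, 23 kept the sign of the log2 fold change in every alternative run. It turned for Trim25 (0.00426 with DESeq2, 0.00147 with edgeR), Mx1 (0.14 with each), Irf1 (-0.00138 with DESeq2, -0.00464 with edgeR, -0.17 with the leukocyte term), Gbp2 (0.11 with limma-voom, 0.19 with the leukocyte term), Zbp1 (0.00452 with limma-voom, 0.10 with the leukocyte term), and with the leukocyte term Oas1g (0.0351), Ifi27 (0.00897) and Epsti1 (0.13). Leaving out 1 library took the value across 0 for Trim25 (-0.20 to 0.19), Mx1 (-1.22 to 0.37), Mx2 (-0.11 to 1.37), Gbp2 (-0.46 to 0.35), Gbp3 (-0.0912 to 0.29), Oas1a (-0.37 to 0.0110), Oas1g (-0.31 to 0.00986), Oas3 (-0.41 to 0.56), Oasl2 (-0.0594 to 0.18), Ddx58 (-0.0382 to 0.19), Dhx58 (-0.0368 to 0.18), Zbp1 (-0.12 to 0.0717), Irf1 (-0.15 to 0.32), Irf9 (-0.12 to 0.14), Ifi35 (-0.0235 to 0.21) and Ifi27 (-0.20 to 0.0661). These were not called. Ifit3, Ifit3b and Mx2 had log2 fold changes of 0.51, 0.99 and -0.11 without control 3, in place of 1.38, 2.35 and 0.75.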
